A study of Homo sapiens with 8 samples.

Results

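The knockdown of MEPCE was examined in U2OS-Flp-In-TREx cells (Flp-In below), a derivative of the human osteosarcoma line U2OS that holds a recombination site and an inducible expression system. Flp-In cells that had received an siRNA against MEPCE (siMePCE, 2 libraries) were compared with Flp-In cells that had received a control siRNA (siNC, 2 libraries), which are 4 of the 8 libraries of the study. Both groups were reverse-transfected at 0 and 48 h and lysed at 96 h. No 4-hydroxytamoxifen is stated for these cells, whereas the other 4 libraries come from U2OS cells with an inducible AsiSI nuclease that had received 300 nM 4-hydroxytamoxifen for 4 h. Every gene that passed a filter on low counts was included, 43321 of the 80311 gene rows. The filter left out 36990 rows, and 13935 of all 80311 rows had 0 counts in all 4 Flp-In libraries. The study is about MePCE where DNA is broken or held in R-loops. The labels do not say whether the siRNA was a single sequence or a pool. They do not say either whether the 2 libraries of a group were grown separately, so the spread behind each p-value may be technical.

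MePCE is the enzyme that methylates the 5′ end of 7SK, an abundant nuclear noncoding RNA, and stays bound to it. Together with LARP7, which binds the 3′ end of 7SK, it holds the RNA in a stable particle, on which HEXIM1 or HEXIM2 keeps P-TEFb inactive. P-TEFb consists of the kinase CDK9 and cyclin T1 or T2, and when released it phosphorylates paused RNA polymerase II and its pausing factors so that elongation can proceed.

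Total counts were 42690551 and 41431776 in the siNC libraries and 50409746 and 46070992 in the siMePCE libraries. Levels are given as CPM, counts scaled to a fixed library total after scaling between libraries, without correction for gene length, so they are compared between libraries and not between genes. Mitochondrial genes took 5.23% and 5.52% of counts under siNC and 8.66% and 8.24% under siMePCE. For the marker genes that follow, CPM is the plain count over the library total, without the scaling between libraries. VIM, SPARC, FN1, CDH2 and RUNX2, mesenchymal genes expressed by U2OS, were present in all 4 libraries. The bone matrix genes BGLAP and IBSP and the collagen gene COL1A2 lay below 1 CPM, and ALPL and TWIST1 reached no more than 1.3 and 1.49 CPM. The 12 mesenchymal and osteoblast markers together held 1590 and 1650 CPM under siNC and 1170 and 1100 CPM under siMePCE. Within that sum COL1A2 and TWIST1 went the other way, TWIST1 from 0.562 and 0.724 CPM to 1.49 and 1.48 CPM. The 8 epithelial markers held 24.6 to 26.4 CPM under siNC and 40.5 to 41.4 CPM under siMePCE. CLDN4 alone made up 12.1 to 13.3 and 24.4 to 26.8 CPM of this, and KRT14 was at or near 0. EPCAM and KRT5 were lower under siMePCE, EPCAM at 6.68 and 5.74 CPM against 4.17 and 4.95 CPM. The 6 blood markers held 8.60 to 8.69 CPM under siNC and at most 11.8 CPM under siMePCE, with CD3E and CD14 near 0. HBB went the other way, at 3.28 and 2.56 CPM under siNC and 1.79 and 1.74 CPM under siMePCE. Overlapping genes had 3.81, 11.6 and 1.86 times the counts of EPCAM, PTPRC and HBB. The part of these markers in the results below was not tested.

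MEPCE itself (chromosome 7, 100025945 to 100031749, plus strand, build hg19) stood at 39.9 and 40.1 CPM under siNC and at 5.35 and 4.84 CPM under siMePCE. Both knockdown libraries lay far below both controls, a 7.85-fold lower level (log2 fold change -2.97, SE 0.155, adjusted p = 1.11e-11). A gene that overlaps MEPCE had 1.08 times its total count, and reads in the stretch they share count for both. 7SK, listed as RN7SK (chromosome 6, 52860419 to 52860746), was at 11310 and 10910 CPM under siNC and at 2405 and 2089 CPM under siMePCE, and so fell 4.95-fold (SE 0.0659 on the log2 scale, adjusted p = 2.5e-15). Its row overlaps a second row for 7SK.

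Of the protein partners of 7SK, CDK9 alone was called changed in this comparison. CDK9 (chromosome 9, 130547958 to 130553071) was at 50.8 and 45.4 CPM under siNC and at 25.1 and 20.5 CPM under siMePCE, a log2 fold change of -1.08 (SE 0.119, adjusted p = 3.55e-07). Its partners cyclin T1 and T2 gave no call: CCNT1 was at 98.8 and 101 CPM against 95.7 and 95.0 CPM, and CCNT2 at 79.28 and 75 CPM against 89.5 and 81.1 CPM. The inhibitor HEXIM1 ranged from 48.4 to 50.1 CPM under siNC and from 45.1 to 54.7 CPM under siMePCE, and these ranges overlapped. LARP7 was at 31.8 and 28.5 CPM against 27.8 and 23.9 CPM (log2 fold change -0.22, adjusted p = 0.187), and HEXIM2 at 4.50 and 5.58 CPM against 4.48 and 3.50 CPM (adjusted p = 0.257). Overlapping genes had 0.938, 1.14 and 14.9 times the counts of LARP7, HEXIM1 and HEXIM2.

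Across all genes, edgeR's quasi-likelihood test at a Benjamini-Hochberg adjusted p under 0.05 called 17690 of 43321 genes (40.8%), of which 7844 were higher under siMePCE (18.1%) and 9846 lower (22.7%). Among 17341 protein-coding genes 3543 were higher (20.4%) and 5925 lower (34.2%), 54.6% in all (54.4% among those with no strong overlap, that is, no overlapping gene with 0.1 times their counts or more), and these shares are the background for the gene lists below. The CPM of the 2 groups did not overlap in 72.9% of genes. Calls with at least a 2-fold change numbered 3864 higher (8.92%) and 4477 lower (10.3%). At 8-fold or more the order was the other way, with 364 genes higher and 195 lower. Among protein-coding genes with no strong overlap these numbers were 37 and 23. The balance of calls also differed by level. With a mean under 0.2 CPM 7.36% of genes were higher and 2.26% lower, against 19.8% and 41.9% between 5 and 20 CPM. Without siNC replicate 1 the number called higher was 4899.

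The largest rises and falls were read from genes with a mean of at least 5 CPM over the 4 libraries, groups that did not overlap, and no strong overlap. TRAF1, an adaptor of TNF receptors that NF-kB induces (chromosome 9, 123664671 to 123691451), led the rises. It was at 4.71 and 5.98 CPM under siNC and at 50.3 and 46.2 CPM under siMePCE, 9.03-fold higher (log2 fold change 3.18, SE 0.193, adjusted p = 8.92e-11). HMOX1, heme oxygenase, was at 53.1 and 64.0 CPM and then at 338 and 374 CPM (6.08-fold, adjusted p = 4.96e-08). With a dispersion estimate that allows for outlying genes the adjusted p of HMOX1 was 0.0178, against 1.85e-139 to 0.0178 over the alternatives run. ATF3, a stress-induced transcription factor, rose from 9.05 and 9.67 CPM to 57.3 and 46.8 CPM.

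The other rises of this rule were of genes with varied roles. BAAT, which conjugates bile acids to amino acids, went from 1.52 and 1.48 CPM to 8.01 and 11.8 CPM, and the siMePCE libraries lay apart from each other. RIMKLA, an enzyme that makes N-acetylaspartylglutamate, rose 6.24-fold, CA8, a carbonic anhydrase-related protein, 5.57-fold, and IL12RB2, a subunit of the interleukin-12 receptor, 5.20-fold. EPHA4, an ephrin receptor, rose 5.13-fold, DCDC2C, of the doublecortin family, 4.91-fold, and PELI2, a ubiquitin ligase of Toll-like receptor signalling, from 16.9 and 17.5 CPM to 84.4 and 82.5 CPM. MIR4422HG, a microRNA host gene, and MT-ND6, of the mitochondrial genome, completed the 12 with 5.03-fold and 5.01-fold rises.

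HAPLN1 and EIF4G3 led the falls by this rule. They and others of the rule, such as LMF2 and PODXL, fell by more than MEPCE did, differences that were not tested. HAPLN1, which links hyaluronan to proteoglycans, stood at 21.7 and 21.2 CPM under siNC and at 1.54 and 1.86 CPM under siMePCE, 12.6-fold lower (SE 0.203 on the log2 scale). EIF4G3, a scaffold of translation initiation (chromosome 1, 21132785 to 21503778), was at 108 and 101 CPM and then at 7.89 and 8.89 CPM, 12.5-fold lower (SE 0.113, adjusted p = 9.07e-15). HR, the hairless corepressor, fell from 54.5 and 55.8 CPM to 5.35 and 4.96 CPM, and COPS7A, a COP9 signalosome subunit, from 66.6 and 65.4 CPM to 7.30 and 8.36 CPM. PODXL, a sialomucin, fell 8.37-fold, LMF2, a homolog of lipase maturation factor 1, 8.90-fold, ABCA2, a lipid transporter, 7.91-fold, PHF7, a histone reader and ubiquitin ligase, 7.92-fold, ACTR1B, a dynactin subunit, 7.26-fold, CCDC9B 6.97-fold and SMAD9, a BMP effector, 6.83-fold.

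**Figure D1:**
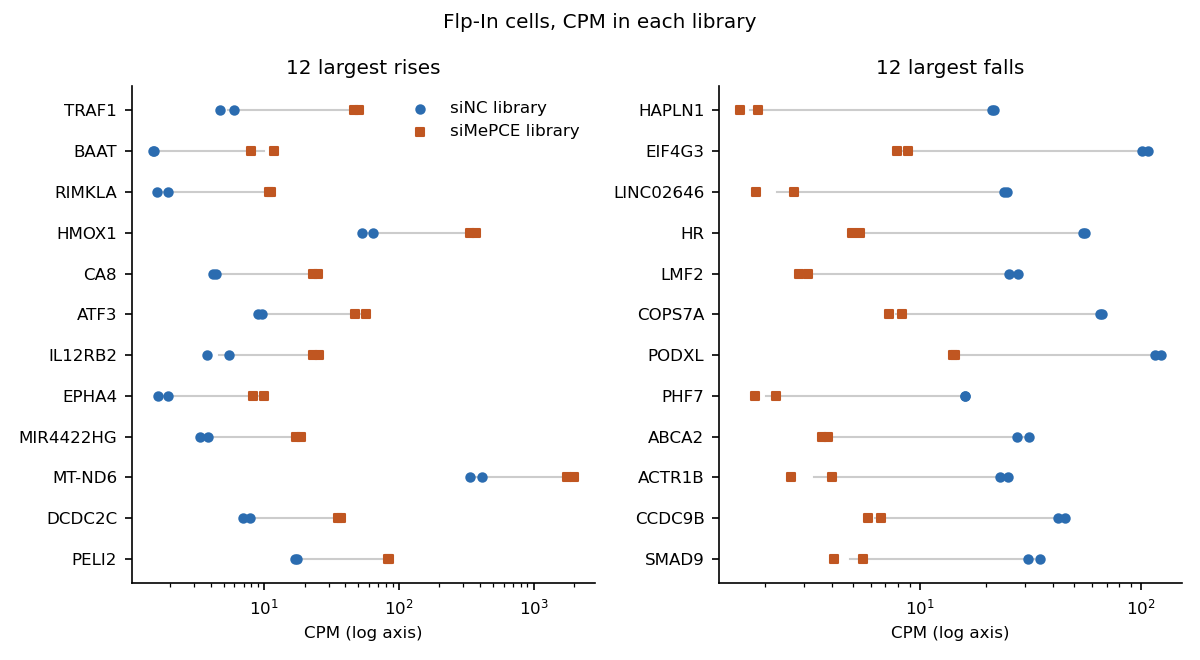
CPM on a log axis in each Flp-In library for the 12 genes with the largest rise (left) and the 12 with the largest fall (right); circles are the 2 siNC libraries, squares the 2 siMePCE libraries, and grey lines join the group means. In every gene shown the groups stand apart, as the rule required; TRAF1 at the top left lies at 4.71 and 5.98 CPM under siNC and at 50.3 and 46.2 CPM under siMePCE.

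Long noncoding RNAs were read by the same rule, but with a mean of at least 1 CPM. At this lower floor LINC00604 and LINC02818 rose by more than TRAF1. LINC00604 (chromosome 5, 40240269 to 40267765, plus strand) had 6 and 2 counts under siNC and 219 and 246 counts under siMePCE, that is 0.140 and 0.0479 CPM against 4.44 and 5.09 CPM (adjusted p = 8.47e-11). LINC02818 rose from 0.676 and 0.718 CPM to 7.72 and 7.45 CPM, LINC02986 5.80-fold and LINC02064 5.73-fold. The falls were led by LINC02646 (chromosome 10, 132011752 to 132281517), from 24.1 and 24.9 CPM to 1.82 and 2.71 CPM, followed by LINC01262 (8.86-fold), LINC02702 (4.57-fold), LINC01193 (4.35-fold) and CENATAC-DT (4.19-fold). Of 1586 long noncoding genes free of a strong overlap, 23.1% were higher and 13.2% lower, with a median log2 fold change of 0.42, against -0.05 for the 7206 protein-coding genes free of one. Noncoding genes lie at lower levels, and the medians depended on level: between 0.2 and 1 CPM they were 0.58 for 713 noncoding and 0.32 for 907 protein-coding genes, between 1 and 5 CPM 0.26 and -0.18, and between 5 and 20 CPM -0.17 and -0.26. Among better-known members, NEAT1, the scaffold of paraspeckles, rose from 470 and 456 CPM to 833 and 971 CPM and MALAT1, an RNA of nuclear speckles, from 2223 and 2347 CPM to 5984 and 5337 CPM. A row overlapping MALAT1 had 0.999 times its counts.

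The fold change moved with the length of the counted interval, which spans a gene from start to end with its introns. Among protein-coding genes free of a strong overlap, the 498 that span under 5 kb had a median log2 fold change of -0.40, with 11.2% higher and 36.7% lower. The median was -0.25 for 1750 genes of 5 to 20 kb, -0.04 for 1921 genes of 20 to 50 kb, 0.04 for 1353 genes of 50 to 100 kb and 0.07 for 958 genes of 100 to 200 kb. In the 726 genes of 200 kb or more it was 0.11, and there 38.4% were higher and 29.5% lower. The order was the same in genes with a mean of at least 5 CPM, from -0.33 in the shortest to 0.04 in the longest class. Intron and exon reads are counted together here and cannot be told apart, and the part of transcript length or intron content in this pattern was not tested.

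**Figure D2:**
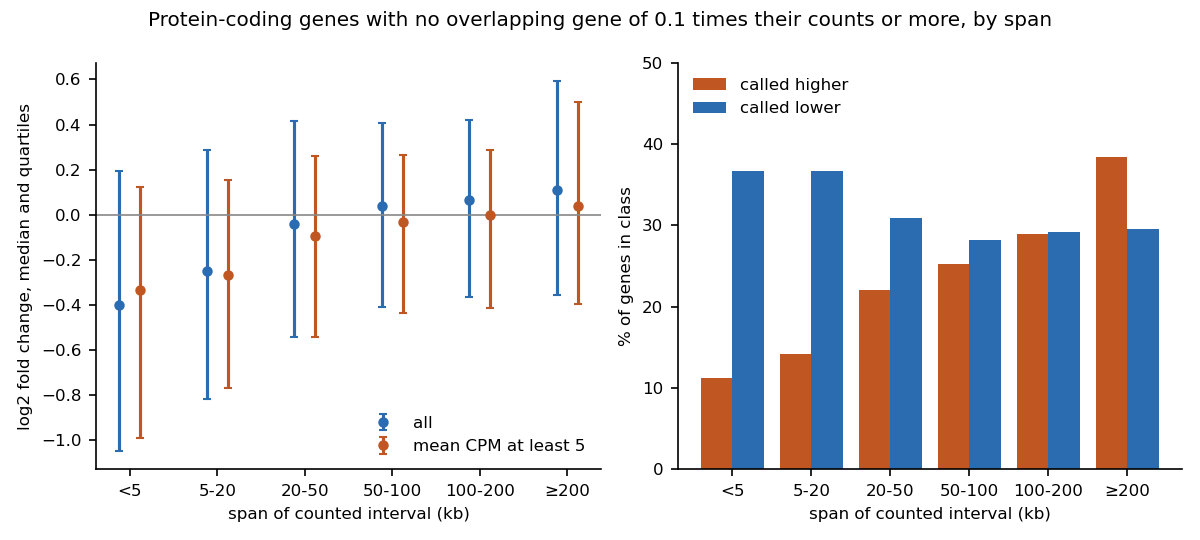
Protein-coding genes free of a strong overlap, in 6 classes of span in kb; left, median log2 fold change with bars from the lower to the upper quartile for all such genes and for those with a mean of at least 5 CPM; right, the percentage of each class called higher and lower. The share called higher climbs from 11.2% in the shortest class to 38.4% in the longest.

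The lists that follow were described by how many of their members were called, beside the protein-coding background of 20.4% higher and 34.2% lower. Genes of cell division were lower almost throughout. None of 40 mitotic kinases, anaphase-promoting complex subunits and kinetochore genes was called higher and 33 were lower (median log2 fold change -0.77), and of 20 kinesins and central spindle genes 19 were lower (median -0.87), ECT2 giving no call. Of 25 and 12 members free of a strong overlap, 19 and 11 were lower.

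The promoters of 3 of these genes are shown because they hold, close to the start site, the pair of short elements that many genes of the late cell cycle share. They are 250 bases long, from 220 bases before to 30 after the start, 5′ to 3′ on the gene's strand (RefSeq, GRCh38.p14), and capitals mark CCAAT and the cell cycle homology region TTTGAA on either strand. They lie at chr1:43358761-43359010 (plus strand, CDC20), chr1:200620722-200620971 (minus strand, KIF14) and chr17:44947744-44947993 (minus strand, KIF18B).
CDC20: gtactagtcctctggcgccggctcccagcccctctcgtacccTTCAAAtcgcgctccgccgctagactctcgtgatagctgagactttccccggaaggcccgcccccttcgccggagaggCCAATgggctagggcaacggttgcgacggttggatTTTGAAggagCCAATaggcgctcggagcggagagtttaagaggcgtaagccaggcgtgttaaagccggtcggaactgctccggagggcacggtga
KIF14: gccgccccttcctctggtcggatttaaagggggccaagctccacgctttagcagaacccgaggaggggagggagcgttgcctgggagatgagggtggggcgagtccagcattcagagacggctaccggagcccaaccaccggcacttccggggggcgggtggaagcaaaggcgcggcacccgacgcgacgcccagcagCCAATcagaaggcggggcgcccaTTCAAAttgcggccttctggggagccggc
KIF18B: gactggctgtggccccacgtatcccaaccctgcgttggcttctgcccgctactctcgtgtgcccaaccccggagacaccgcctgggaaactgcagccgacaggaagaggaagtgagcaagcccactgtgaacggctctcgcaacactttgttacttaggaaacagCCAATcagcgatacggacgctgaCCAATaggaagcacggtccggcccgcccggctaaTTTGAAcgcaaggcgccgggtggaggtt
In CDC20 the element TTTGAA begins 65 bases before the start and CCAAT 100 and 55 bases before it. Over the whole window of 250 bases before to 50 after the start, CCAAT was present in 15 of 18 kinesin and spindle promoters with an entry (83.3%) and TTTGAA likewise in 83.3%. The mitotic list had 67.7% and 58.1% of 31 windows. Of the 13492 windows of protein-coding genes tested, 36.3% held CCAAT and 11.2% TTTGAA, and among all 35116 windows 34.6% and 15.2%. In the 1621 windows of protein-coding genes called lower by at least 2-fold the shares were 36.2% and 9.5%. In the 714 windows of those called higher by at least 2-fold they were 36.0% and 17.6%. A match is a description of letters, not a site.

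The levels of those genes separated cleanly by group. CDC20, which activates the anaphase-promoting complex, was at 151 and 156 CPM under siNC and at 54.8 and 44.6 CPM under siMePCE (3.08-fold lower, SE 0.113 on the log2 scale, adjusted p = 5.52e-10). KIF14, a kinesin of cytokinesis, was at 109 and 98.4 CPM and then at 37.7 and 33.9 CPM, and KIF18B, which shortens microtubules, at 96.6 and 97.5 CPM and then at 45.5 and 38.7 CPM. CDC25B, a phosphatase that activates CDK1, fell 3.74-fold, ESPL1, separase, 2.58-fold, and PTTG1, securin, 2.62-fold. CIT, citron kinase, fell from 211 and 211 CPM to 88.0 and 74.8 CPM, and ANLN, anillin, from 420 and 403 CPM to 226 and 193 CPM. Not every mitotic gene followed: WEE1, TTK and CENPN had log2 fold changes of 0.06, 0.01 and 0.05 with no call, CENPN with an overlapping gene at 1.41 times its counts.

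Replication-dependent histones are made in S phase from short genes without introns whose transcripts end in a stem-loop. None of the 38 measured rose and 33 were lower, with a median log2 fold change of -1.71, and of 17 free of a strong overlap 16 were lower. H2BC21 was at 231 and 237 CPM under siNC and at 56.1 and 50.6 CPM under siMePCE (4.38-fold lower, SE 0.105 on the log2 scale, adjusted p = 4.63e-12). H3C10 fell from 24.15 and 24.96 CPM to 4.399 and 4.777 CPM, H2BC14 from 40.8 and 44.3 CPM to 9.41 and 7.76 CPM, and H2BC11 3.26-fold. H2BC18 stood alone on the other side, at a log2 fold change of 0.54 with no call and an overlapping gene at 1.08 times its counts. The factors that process histone RNA had 6 of 15 members higher and 3 lower (1 lower without siMePCE replicate 2): LSM11, of U7, rose 1.62-fold, ERI1, which trims the 3′ end, 1.46-fold, and the cleavage factor CPSF3 fell from 54.6 and 54.9 CPM to 31.6 and 30.9 CPM. Histone genes are near-identical copies, so single members are uncertain.

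The promoters of H3C10 and H2BC21 are shown for their match to the letters of the TATA box, close to the start. The windows are cut as before, at chr6:27809831-27810080 (plus strand, H3C10) and chr1:149886653-149886902 (minus strand, H2BC21), and capitals mark CCAAT and TATAAA on either strand.
H3C10: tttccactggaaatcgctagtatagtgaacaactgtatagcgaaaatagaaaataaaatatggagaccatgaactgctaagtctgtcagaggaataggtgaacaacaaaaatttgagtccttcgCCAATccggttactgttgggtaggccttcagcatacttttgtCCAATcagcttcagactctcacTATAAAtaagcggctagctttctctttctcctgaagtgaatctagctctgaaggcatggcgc
H2BC21: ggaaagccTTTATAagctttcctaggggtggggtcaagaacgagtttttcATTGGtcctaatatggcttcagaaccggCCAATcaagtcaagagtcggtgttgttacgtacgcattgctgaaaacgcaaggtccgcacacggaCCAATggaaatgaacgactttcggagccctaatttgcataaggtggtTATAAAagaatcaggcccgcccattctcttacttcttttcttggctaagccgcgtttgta
TATAAA begins 32 bases before the start of H3C10 and 30 before that of H2BC21. It was present in 68.6% of 35 histone windows and CCAAT in 80.0%. TATAAA was found in 7.58% of the windows of protein-coding genes tested and in 11.5% of all windows. Among protein-coding genes changed by at least 2-fold, 7.4% of windows of those called lower and 15.5% of those called higher held it.

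Genes that control entry into S phase and copy DNA moved the same way in most cases. Of 20 E2F and RB family genes 12 were lower and 1 higher (median log2 fold change -0.67). TFDP1, the dimer partner of E2F proteins, fell from 123 and 119 CPM to 26.8 and 23.1 CPM, E2F1 from 23.6 and 22.5 CPM to 7.34 and 5.71 CPM, and the retinoblastoma gene RB1 from 122 and 115 CPM to 56.8 and 55.0 CPM. Of 15 G1 cyclins, CDKs and inhibitors 11 were lower and 1 higher; CDKN2C, an inhibitor of CDK4 and CDK6, fell 3.96-fold and CCNE1, cyclin E, 1.43-fold. Of 41 replication genes 26 were lower and 1 higher (median -0.43), among them POLD2, of polymerase delta, at 106 and 111 CPM against 47.5 and 41.9 CPM, MCM4, of the helicase, 2.01-fold lower, and POLE, 2.05-fold lower. Of 22 Polycomb and DNA methylation genes 14 were lower and 1 higher: UHRF1, which recruits DNMT1 to new DNA, fell from 55.8 and 60.9 CPM to 17.7 and 18.9 CPM and DNMT1 itself 2.27-fold. In condensin and cohesin 13 of 22 were lower and 3 higher (8 lower without siMePCE replicate 2); SMC1A fell 1.87-fold, while ESCO1, which acetylates cohesin, and WAPL, which releases it, rose 1.58-fold and 1.33-fold.

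**Figure D3:**
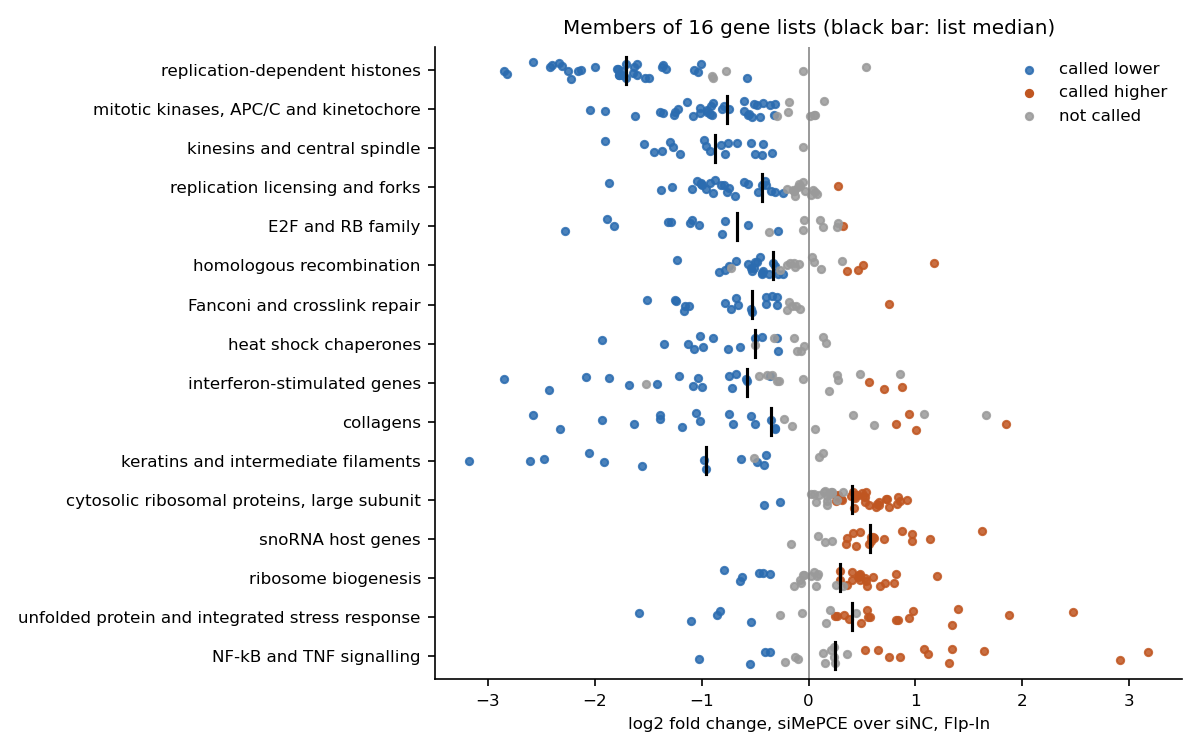
Log2 fold change (siMePCE over siNC in Flp-In cells) of every tested member of 16 gene lists; each point is a gene, coloured by its call, and the black bar is the list median. The 38 replication-dependent histones lie furthest left with a median of -1.71, and the 20 snoRNA host genes have a median of 0.57.

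DNA repair was examined by pathway, since the study concerns breaks. Homologous recombination, which copies from the sister chromatid, had 20 of 35 members lower and 4 higher (median log2 fold change -0.34). The 4 higher were FIGNL1, an AAA-type ATPase, from 20.47 and 18.02 CPM to 48.7 and 38.1 CPM, and the helicases WRN, BLM and HELQ, at log2 fold changes of 0.51, 0.47 and 0.36. RMI1, of the BLM complex, fell 1.60-fold and DNA2, a resection nuclease, 1.42-fold. HELQ lost its call without siNC replicate 2, siMePCE replicate 1 or siMePCE replicate 2 (adjusted p = 0.192, 0.0671 and 0.08), and BLM is overlapped by a gene with 0.231 times its counts. In the Fanconi pathway, which unhooks crosslinks, 17 of 23 were lower and 1 higher (11 lower without siMePCE replicate 2); UBE2T, its E2 enzyme, fell from 28.2 and 28.7 CPM to 11.6 and 13.7 CPM and BRIP1, a helicase, from 228 and 204 CPM to 137 and 136 CPM. Base excision repair and the PARP family had 14 of 22 lower and 2 higher, with PARP3 2.36-fold lower and TDG, a thymine glycosylase, 1.57-fold higher. Nucleotide excision repair had 12 of 25 lower and 6 higher (3 higher without siNC replicate 2 or siMePCE replicate 1), with UVSSA 2.96-fold and DDB2 2.21-fold lower and CDK7, the kinase of TFIIH, 1.64-fold higher.

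In end joining, which rejoins broken ends, 6 of 16 were lower and 1 higher: PRKDC, the catalytic subunit of DNA-PK, fell from 687 and 656 CPM to 385 and 352 CPM, and PAXX, a paralog of XRCC4, 2.51-fold. Mismatch repair had 7 of 8 lower, a count of 3 without siMePCE replicate 2 or siNC replicate 1, with PMS2 1.42-fold lower. Of 20 genes of the 53BP1 and shieldin axis, which steers breaks to end joining, 6 were lower and 4 higher (1 without siNC replicate 1 and 2 without any other library), and HERC2, a ubiquitin ligase at breaks, fell from 139 and 138 CPM to 85.3 and 85.9 CPM. Among ATR pathway genes 6 of 17 were lower and 1 higher, TIMELESS, which stabilises forks, at 64.5 and 63.5 CPM against 26.2 and 24.3 CPM, and HUS1, of the checkpoint clamp, 1.77-fold higher. Of 28 R-loop factors 10 were lower and 6 higher; 6 were lower without siMePCE replicate 2, and 2 to 4 were higher when any 1 library was left out. PIF1, a helicase of G-quadruplexes and R-loops, fell from 15.0 and 14.4 CPM to 3.37 and 2.48 CPM (adjusted p = 4.85e-08).

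In the lists of transcription machinery the changes were smaller and mixed. ELL, of the super elongation complex that carries P-TEFb, rose from 18.1 and 16.6 CPM to 27.9 and 25.3 CPM, and BRD2, a bromodomain protein, 1.38-fold, among 4 of 14 higher and 1 lower; this list had 8 higher when only the 4 Flp-In libraries were fitted. Of the pausing and elongation factors 5 of 15 were lower and 3 higher (1 higher without siNC replicate 1, siNC replicate 2 or siMePCE replicate 1), with NELFE at 20.9 and 22.5 CPM against 15.36 and 10.98 CPM and NELFB, with an overlapping gene at 0.428 times its counts, 1.71-fold lower. Of 12 RNA polymerase II subunits 5 were lower and 1 higher (3 lower without siNC replicate 1, siNC replicate 2 or siMePCE replicate 2): POLR2G fell from 22.1 and 20.8 CPM to 9.97 and 9.51 CPM, and POLR2K rose 1.39-fold. Mediator, which bridges activators and the polymerase, had 12 of 32 higher and 8 lower, MED10 rising 1.60-fold and MED22 falling 2.02-fold; without siNC replicate 2, 7 were higher. Integrator, which cleaves nascent RNA, had 5 of 15 lower and 2 higher (1 higher without any 1 library), and INTS1, its largest subunit, fell from 130 and 136 CPM to 59.9 and 48.6 CPM. HNRNPM, a splicing regulator, fell 3.06-fold from 104 and 105 CPM, in a list of SR proteins and hnRNPs with 10 of 30 lower (5 without siMePCE replicate 2) and 3 higher (1 without siNC replicate 2 or siMePCE replicate 1).

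Large-subunit ribosomal protein genes were called higher more often than lower. Of 46 large-subunit ribosomal proteins 29 were higher and 2 lower in the full fit, with a median log2 fold change of 0.41, and 11 of 20 free of a strong overlap were higher. With 1 library left out the median lay between 0.25 and 0.505, and in some of these fits fewer genes were called higher or lower. RPL37 was at 155 and 167 CPM under siNC and at 311 and 258 CPM under siMePCE (1.77-fold, SE 0.0985 on the log2 scale, adjusted p = 9.83e-07), RPL39 at 15.9 and 18 CPM and then at 33.7 and 30.6 CPM, and RPL34 rose 1.67-fold. Of 37 ribosome biogenesis genes 19 were higher and 6 lower, including WDR43, which rose from 208 and 199 CPM to 328 and 319 CPM, FBL, fibrillarin, 1.64-fold, and NPM1, nucleophosmin, 1.38-fold. Host genes of snoRNAs, the guides for ribosomal RNA modification, were higher in 16 of 20 and lower in 0 (median 0.57). Without siMePCE replicate 1 the median was 0.411 and fewer were called. Only 2 of the 20 were free of a strong overlap, and both were higher. SNHG17 rose from 26.0 and 27.4 CPM to 54.0 and 50.4 CPM. Of 209 snoRNA rows 77 were higher (36.8%) and 0 lower, but 0 of these rows were free of a strong overlap. Reads of snoRNAs and of their hosts therefore cannot be told apart, in the rows of either. Translation factors were mixed, 15 of 40 higher and 10 lower, with EIF2S1 1.45-fold higher and EIF4G1, the main scaffold beside EIF4G3, falling from 339 and 353 CPM to 206 and 177 CPM. VARS1, the valine tRNA synthetase, fell from 101 and 101 CPM to 19.2 and 19.8 CPM in a list with 6 of 22 higher (3 without siNC replicate 1, siNC replicate 2 or siMePCE replicate 1) and 6 lower.

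Of 24 listed small structured RNAs other than 7SK 10 were measured, 7 of them higher and 0 lower, and their replicates spread widely. The list does not stand for its class. Among all 112 small nuclear RNA rows tested 17.9% were higher and 5.36% lower. Among 108 rows of the miscellaneous RNA type the shares were 6.48% and 4.63%, against 18.1% and 22.7% of all genes. RMRP, the RNA of RNase MRP, was at 2484 and 3251 CPM under siNC and at 7139 and 4851 CPM under siMePCE (2.09-fold, adjusted p = 9.09e-07), with a row on top of it at 1.0 times its counts. RNU4-1, a U4 spliceosomal RNA, was at 10.8 and 24.7 CPM and then at 71.3 and 43.4 CPM, and RNU4-2 at 10.3 and 22.7 CPM and then at 64.8 and 34.7 CPM. In all of these the lowest library was siNC replicate 1 and the highest siMePCE replicate 1. With a robust dispersion estimate RNU4-1 (adjusted p = 0.0724) and RNU4-2 (0.093) lost their calls, against ranges of 1.61e-41 to 0.0724 and 3.95e-34 to 0.093 over the alternatives. RNU5B-1, a U5 RNA, had 0.723 and 0.766 CPM against 4.99 and 2.61 CPM.

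In the mitochondrial genome, transcribed from both strands as long precursors, all 7 genes for complex I rose, 1.72-fold to 5.01-fold, while the others had log2 fold changes of -0.82 to 0.39. MT-ND6, the only protein gene encoded on the light strand (mitochondrial position 14149 to 14673), was at 338 and 413 CPM under siNC and at 1986 and 1773 CPM under siMePCE (5.01-fold, SE 0.0881 on the log2 scale, adjusted p = 1.57e-13). MT-ND5 went from 1957 and 2138 CPM to 6664 and 5688 CPM, MT-ND4 from 8041 and 8630 CPM to 21530 and 19910 CPM, and MT-ND1 from 2999 and 3038 CPM to 8052 and 6414 CPM. MT-ND4L, MT-ND2 and MT-ND3 rose 2.37-fold, 1.98-fold and 1.72-fold. MT-CO1, of complex IV, was at 10640 and 11010 CPM and then at 11630 and 10450 CPM, with ranges that overlapped, and MT-ATP6 and MT-ATP8 gave no call at log2 fold changes of 0.03 and -0.01. MT-CO3 alone fell, from 4161 and 4386 CPM to 2549 and 2279 CPM, a log2 fold change of -0.82 (SE 0.0698, adjusted p = 8.34e-09). MT-CO2 and MT-CYB rose 1.31-fold and 1.26-fold, and the ribosomal RNA rows MT-RNR1 and MT-RNR2 varied from 31.9 to 159 CPM with no call; MT-RNR1 was called lower without siNC replicate 1 (adjusted p = 0.00962) and without the count filter (0.00172). Where mitochondrial genes touch or overlap, as MT-ND4 with MT-ND4L and MT-ATP6 with MT-CO3, reads in the shared stretch count for both.

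**Figure D4:**
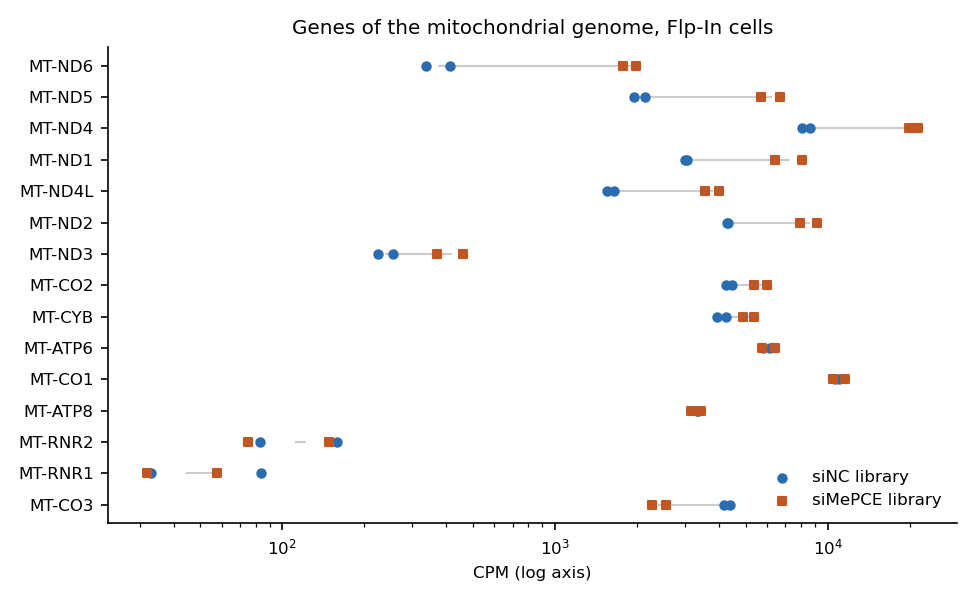
CPM on a log axis of the 15 genes of the mitochondrial genome in each Flp-In library, ordered by fold change; circles are siNC, squares siMePCE, and grey lines join the group means. MT-ND6, MT-ND5, MT-ND4 and MT-ND1 lie at the top with groups well apart, and MT-CO3 at the bottom is the gene in which the siMePCE libraries are lower, at 2549 and 2279 CPM.

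Nuclear genes of the respiratory chain were called higher and lower at shares near the protein-coding background of 20.4% and 34.2%. Citric acid cycle genes were called lower more often than higher, and factors that copy and process mitochondrial RNA were more often higher than lower. Of 71 respiratory chain subunits 25 were lower and 13 higher (median log2 fold change -0.14; 15 lower without siMePCE replicate 2, and 8 and 7 higher without siNC replicate 1 and siMePCE replicate 1), with CYC1, cytochrome c1, at 108 and 107 CPM against 38.7 and 33.8 CPM and NDUFV1, a complex I subunit, 2.36-fold lower. Of 24 citric acid cycle genes 15 were lower and 0 higher in the full fit, with a median log2 fold change of -0.402. With 1 library left out the median lay between -0.472 and -0.346, and in some of these fits fewer genes were called. OGDH fell from 116 and 123 CPM to 57.3 and 56.2 CPM and FH, fumarase, 1.71-fold. Factors that copy and process mitochondrial RNA had 11 of 33 higher and 5 lower (6 higher without siNC replicate 2, 7 without siNC replicate 1 or siMePCE replicate 1, and 3 lower without siNC replicate 1 or siMePCE replicate 2): TFAM, which packages and transcribes the genome, rose from 53.6 and 48.5 CPM to 112 and 99.4 CPM, TFB2M, a transcription factor of the same machinery, 1.94-fold, and SUPV3L1, a helicase of RNA decay, 1.39-fold. FASTK, which stabilises the ND6 transcript, fell from 9.21 and 8.76 CPM to 3.95 and 3.47 CPM.

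Stress pathways went in different directions. Of 26 genes of the unfolded protein and integrated stress responses 16 were higher and 5 lower (median log2 fold change 0.41). DNAJB9, an endoplasmic reticulum chaperone, rose from 10.1 and 9.62 CPM to 40.8 and 31.9 CPM and ERN1, the sensor IRE1, from 17.4 and 19.3 CPM to 35.53 and 35.01 CPM, whereas CREB3L2 fell 1.78-fold. Cytosolic heat shock chaperones had 13 of 21 lower and 0 higher: HSP90AA1 was at 982 and 1040 CPM under siNC and at 530 and 469 CPM under siMePCE, HSPA8 fell 1.41-fold and CRYAB 2.10-fold. Of 5 measured metallothionein-related genes 3 were lower, MT1E from 151 and 150 CPM to 63.1 and 52.2 CPM, MT2A and MT1X (an overlapping gene at 1.04 times its counts). NRF2 targets were split, 8 of 22 higher (5 without siNC replicate 1 or siMePCE replicate 1) and 6 lower (3 without siNC replicate 2 or siMePCE replicate 2), with TXNRD1 1.496-fold higher beside HMOX1 and TALDO1 1.40-fold lower. Of 25 p53 targets 7 were higher (4 without siNC replicate 1 or siMePCE replicate 1) and 6 lower, CCNG1 2.14-fold higher and FDXR 2.17-fold lower. GABARAPL1, of the autophagosome, rose from 22.5 and 23.5 CPM to 96.0 and 98.1 CPM and the lysosomal glucosidase GAA fell from 44.7 and 43.0 CPM to 12.6 and 9.31 CPM, in a list with 13 of 30 higher and 12 lower.

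NF-kB is held in the cytoplasm by IkB proteins until TNF or similar signals release it, and it then induces its own inhibitors. Of 25 genes of this pathway 11 were higher and 4 lower (median log2 fold change 0.25, range -1.024 to 3.175). Among 14 members free of a strong overlap 6 were higher and 3 lower. The 11 higher included the subunits RELB, from 11.6 and 11.9 CPM to 32.6 and 27.2 CPM, and NFKB1 (log2 fold change 1.08). The feedback inhibitors NFKBIA, NFKBIE and TNFAIP3 were also among them (0.85, 1.32 and 1.64). TRAF3 rose 1.68-fold, TNIP1 1.57-fold and the ubiquitin ligase BIRC3, beside TRAF1 the largest of the list, by 2.91 on the log2 scale. RELA, the main activating subunit, gave no call at -0.13. Overlapping genes had 0.823, 0.248, 0.566, 0.723 and 0.25 times the counts of BIRC3, NFKB1, NFKBIA, TNFAIP3 and RELA. The BIRC3 promoter (chr11:102317264-102317513, plus strand, cut as before) is shown for its match to the NF-kB letters (GGG, any 2 bases, TTTCC), here on the other strand 199 bases before the start and in capitals.
BIRC3: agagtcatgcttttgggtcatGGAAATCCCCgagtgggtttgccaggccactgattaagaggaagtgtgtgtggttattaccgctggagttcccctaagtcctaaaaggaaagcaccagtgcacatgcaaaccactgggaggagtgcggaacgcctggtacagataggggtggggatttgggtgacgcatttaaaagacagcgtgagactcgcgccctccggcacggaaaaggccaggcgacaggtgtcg
The letters were present in 8 of 21 windows of the list (38.1%), in 2.01% of the windows of protein-coding genes tested and in 1.91% of all windows. Among protein-coding genes called higher by at least 2-fold 1.68% of 714 windows held them. Among those called lower by at least 2-fold it was 1.48% of 1621 windows. The TRAF1 window had no match.

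Interferon-stimulated genes, by contrast, had 16 of 31 members lower and 3 higher (median log2 fold change -0.58). IFI44 was at 7.58 and 4.21 CPM under siNC and at 0.811 and 0.827 CPM under siMePCE (7.18-fold lower, SE 0.292 on the log2 scale, adjusted p = 1.25e-07). OASL fell from 3.40 and 1.82 CPM to 0.487 and 0.745 CPM, IRF7 3.65-fold and STAT2 1.60-fold, while the RNA sensors RIGI and IFIH1 rose by 0.57 and 0.70 on the log2 scale and ISG20 by 0.88. IFIH1 lost its call when any 1 of 3 libraries was left out (adjusted p = 0.24 without siNC replicate 2, 0.0508 and 0.0521 without siMePCE replicates 1 and 2) and ISG20 without siNC replicate 1 (0.0516), and a gene overlapping RIGI had 4.5 times its counts. Of 23 secreted inflammatory factors 5 were higher and 4 lower. CXCL8 was at 5.92 and 4.98 CPM and then at 9.20 and 8.31 CPM, a call that was lost without siNC replicate 2, without siMePCE replicate 1, under DESeq2 and with a robust dispersion estimate.

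Immediate early and growth signalling lists were mixed. Of 31 EGR, KLF and related genes 13 were higher and 7 lower: EGR1 fell from 42.0 and 34.4 CPM to 20.2 and 16.9 CPM, and KLF5 and KLF6 rose 1.55-fold and 1.62-fold. Of 18 AP-1 and ATF factors 8 were higher and 5 lower (3 without siNC replicate 2), with JUND 4.35-fold lower (an overlapping gene at 0.281 times its counts) and ATF2 1.46-fold higher. MYC rose from 95.7 and 97.9 CPM to 224 and 205 CPM and its antagonist MXI1 1.74-fold, while MLXIP, a glucose-sensing partner of the same network, fell 2.75-fold. A gene that overlaps MYC had 0.491 times its counts. DUSP5, a nuclear phosphatase of ERK, rose from 26.8 and 24.5 CPM to 52.99 and 54.18 CPM, and SPRED3 fell 2.19-fold. In the Notch pathway 4 of 14 were higher and 4 lower: the receptors NOTCH1 and NOTCH3 fell 3.61-fold and 3.26-fold and LFNG, which modifies them, 2.90-fold, whereas the nuclear effector RBPJ rose 1.68-fold. WNT7B fell from 9.93 and 9.91 CPM to 2.23 and 2.09 CPM and its receptor type FZD2 2.84-fold, among 10 of 32 Wnt genes lower and 5 higher (3 without siNC replicate 1, siNC replicate 2 or siMePCE replicate 1).

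TGF-beta and BMP responses had 13 of 26 lower and 4 higher. SMAD6, an inhibitor that BMP induces, fell from 67.3 and 63.3 CPM to 15.4 and 10.7 CPM, and TGFBI fell 2.31-fold and PMEPA1 2.06-fold. YAP and TEAD targets were split, 12 of 24 lower and 8 higher (5 without siNC replicate 1, siNC replicate 2 or siMePCE replicate 1): AXL fell from 277 and 292 CPM to 130 and 119 CPM and F3, tissue factor, 3.93-fold, whereas ANKRD1 rose from 179 and 191 CPM to 471 and 374 CPM. IGFBP5 fell from 29.1 and 27.0 CPM to 2.15 and 2.19 CPM, with an overlapping gene at 1.39 times its counts, and IGFBP4 2.72-fold.

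The extracellular matrix was lower in its collagens, while its proteases and their inhibitors went both ways. Of 27 collagen genes 16 were lower and 4 higher: COL5A1 was at 50.7 and 57.9 CPM under siNC and at 11.4 and 10.3 CPM under siMePCE (5.004-fold lower, SE 0.115 on the log2 scale, adjusted p = 4.63e-12), COL6A3 at 47.6 and 39.9 CPM and then at 7.91 and 6.80 CPM, and COL6A1 fell 2.61-fold. The 4 higher were COL14A1, COL21A1, COL24A1 and COL25A1, at log2 fold changes of 0.82, 0.94, 1.00 and 1.84, COL14A1 losing its call without siNC replicate 1 (adjusted p = 0.145) or siMePCE replicate 2 (0.16), and COL25A1 having an overlapping gene at 0.182 times its counts. Enzymes and chaperones of collagen had 15 of 20 lower and 3 higher (1 higher without siNC replicate 1, siNC replicate 2 or siMePCE replicate 1), with FKBP10 2.90-fold and PLOD1, a lysyl hydroxylase, 2.50-fold lower. Among proteases and their inhibitors 7 of 23 were higher and 9 lower (4 lower without siNC replicate 2). MMP9 rose from 5.46 and 6.13 CPM to 81.8 and 71.9 CPM and MMP2 from 48.5 and 53.9 CPM to 163 and 145 CPM, with overlapping genes at 0.313 and 0.107 times their counts, and TIMP2, which inhibits MMP2, fell 1.90-fold. Of 33 integrins and laminins 16 were lower and 7 higher (4 higher without siMePCE replicate 2): ITGA3 fell 2.51-fold, LAMB2 3.49-fold and FN1, fibronectin, 2.45-fold, and LAMB3 rose from 128 and 135 CPM to 252 and 257 CPM. Of 15 keratins and other intermediate filaments 12 were lower and 0 higher; NES, nestin, fell from 40.5 and 45.4 CPM to 10.7 and 10.0 CPM and the lamins LMNB2, LMNB1 and LMNA 2.95-fold, 1.96-fold and 1.94-fold. CDH11, the osteoblast cadherin, rose from 4.71 and 4.81 CPM to 18.81 and 17.95 CPM, and JUP, plakoglobin, fell 3.03-fold.

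Lipid and sugar metabolism was lower in many members. Of 30 genes of cholesterol and fatty acid synthesis and their SREBP control 17 were lower and 3 higher (median log2 fold change -0.58): FASN, fatty acid synthase, was at 359 and 335 CPM under siNC and at 124 and 93.2 CPM under siMePCE, SCD fell 1.81-fold, and SCAP, the SREBP escort, 1.78-fold. ABCG1, a sterol exporter, fell from 13.99 and 9.956 CPM to 2.92 and 2.63 CPM. Of 24 glycolysis genes 11 were lower and 3 higher, PFKL falling 3.38-fold, and SLC2A3, a glucose transporter, rising 1.89-fold. In the proteasome 11 of 33 were lower and 5 higher, which became 6 lower without siMePCE replicate 2, and 1 higher without siNC replicate 1 or siMePCE replicate 1 and 3 without siNC replicate 2; PSMB4 fell 2.22-fold and PSMD14 rose 1.36-fold. COPS6 fell 2.20-fold beside COPS7A, in a list of COP9 signalosome and cullin genes with 8 of 25 lower and 6 higher (1 higher without siNC replicate 1 or siMePCE replicate 1, 2 without siNC replicate 2).

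**Figure D5:**
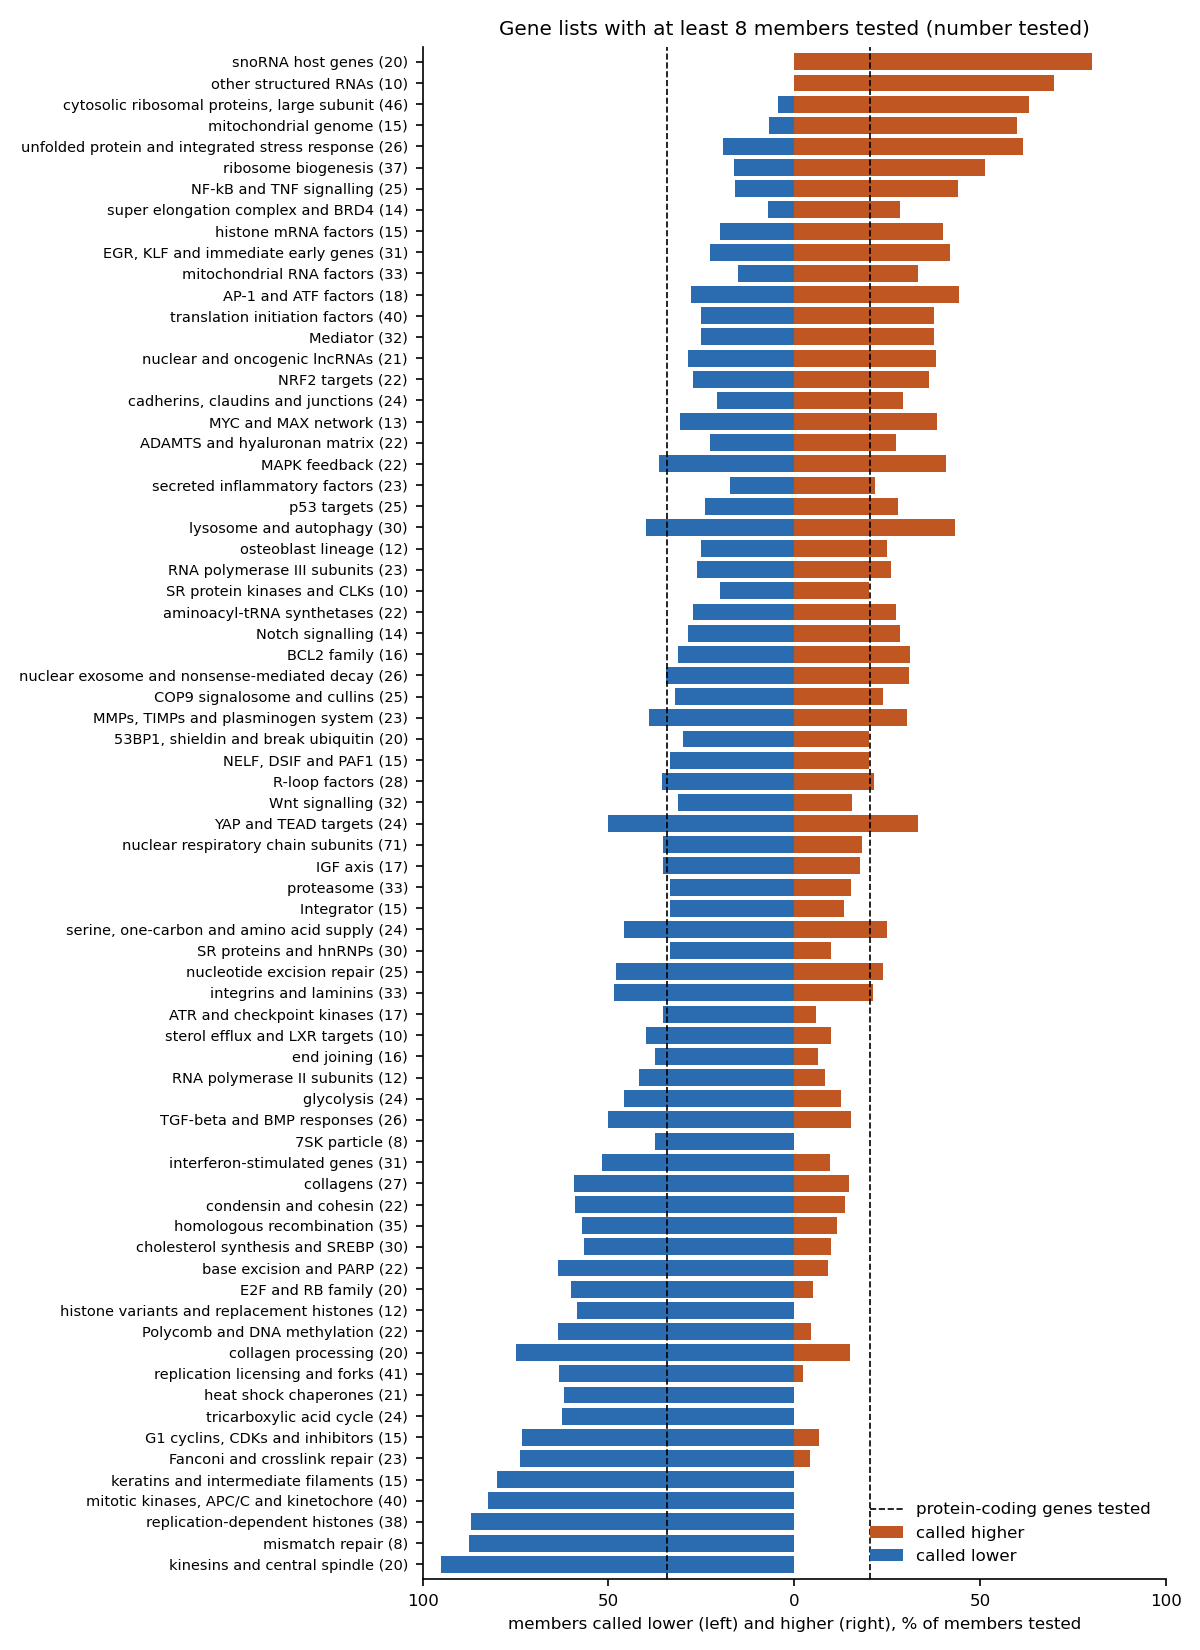
Percentage of tested members called higher (right) and lower (left) in each gene list with at least 8 members tested, with the number tested in brackets; dashed lines mark the shares among all protein-coding genes, 20.4% higher and 34.2% lower. snoRNA host genes (16 of 20 higher, only 2 of the 20 free of a strong overlap) stand at the top and kinesins and central spindle genes (19 of 20 lower) at the bottom.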

How the data were processed

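Total RNA of 8 libraries was sequenced after removal of ribosomal RNA with a directional kit, per the labels' protocols. The submitters' processing notes name the build hg19 and the tools STAR, featureCounts, Trim Galore, SAMtools and FastQC; their versions and settings are not given in the sources used here. Raw counts for 80311 gene rows were deposited by the authors, and all 8 columns of counts were used. In all 80311 rows the stated length equals start to end, so introns are counted, and reads appear to go to every overlapping gene whatever its strand; antisense, nested and overlapping genes cannot be told apart. For each gene the overlap ratio was the largest total count of any gene touching it by at least 1 base, divided by its own; a strong overlap is a ratio of 0.1 or more. Symbols matched for 50.8% of rows, holding 85.2% of counts, and 1744 of 1761 listed symbols matched. Gene types came from GENCODE 29 by identifier.

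Counts were scaled by TMM and filtered by filterByExpr. The 8 libraries were fitted as 4 group means with edgeR 4.0.16 (quasi-likelihood, R 4.3.3), on the contrast siMePCE minus siNC in Flp-In cells, with Benjamini-Hochberg adjustment over 43321 genes and calls at 0.05. SE is the absolute log2 fold change divided by the square root of F. CPM is computed here from TMM-scaled library sizes. The fit was tested on simulated data. Replicates of a group differed beyond sampling noise (chi-square per degree of freedom of 4.51 for siNC and 7.63 for siMePCE), and the common biological coefficient of variation was 0.121.

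Named genes are the 7SK particle, the 12 largest rises and 12 largest falls and 5 long noncoding genes each way (mean CPM of 5, or 1 for noncoding, groups apart, no strong overlap), and up to 4 called members per list by adjusted p, those without a strong overlap first. The members and the 75 lists were chosen with earlier results of these data known. Outside the rule, WEE1, TTK, CENPN, ECT2, H2BC18, BLM, HELQ, NFKB1, NFKBIA, NFKBIE, TNFAIP3, BIRC3, RELA, RIGI, IFIH1, ISG20, 4 collagens, RMRP and the remaining mitochondrial genes were chosen after their values were seen. Promoter windows are from RefSeq (GRCh38.p14) by symbol, 250 bases before to 50 after the start, searched for 8 motifs on both strands. Some named genes are not reported here. No set test was run. Alternatives were DESeq2 size factors, DESeq2 1.42.0, other filters, removal of abundant rows, a replicate block, the 4 Flp-In libraries alone, each library left out, a fold threshold and, chosen after the data were seen, a robust dispersion estimate.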

Additional observations from a re-analysis of the deposited data

Results flagged for a closer look

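The siMePCE effect was also measured in the AsiSI cells, which had 4-OHT, so cell line and 4-OHT cannot be told apart. Of 320 named genes, 46 had an effect that differed between the 2 settings in the interaction test of the same edgeR fit (adjusted p below 0.05), and over all tested genes 1808 did. Each value is the log2 siMePCE effect in AsiSI cells minus that in Flp-In cells. The named genes were chosen by their change in Flp-In cells, so the sizes of the 2 effects are not compared as a group. CXCL6 is left out because both Flp-In siNC libraries were at 0.

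For 8 genes both settings gave a call and the directions were opposite. MYC, the growth-promoting transcription factor, rose in Flp-In cells and fell in AsiSI cells, a difference of -1.56, and so did KLF6 (-1.22), ADAMTS1 (-1.92), PAPPA2 (-1.06), MIR31HG (-0.65) and ZFP36L1 (-0.46). The Flp-In calls of PAPPA2, MIR31HG and ZFP36L1 were not stable: PAPPA2 lost its call under DESeq2 (adjusted p = 0.116), without siNC replicate 1 and without siMePCE replicate 2 (range over these 0.116 to 0.255), MIR31HG without either of the same libraries and with no filter (0.0511 to 0.319), and ZFP36L1 without each of the 4 libraries and with no filter (0.0597 to 0.186). ABCG1, a sterol exporter, and AKR1C1, an aldo-keto reductase, fell in Flp-In cells and rose in AsiSI cells, with differences of 2.87 and 2.51.

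Among genes that fell in Flp-In cells the fall was smaller in AsiSI cells for IGFBP5, which binds insulin-like growth factors (difference 2.73), COL5A1 (1.46), F3 (1.41), COL6A3 (0.80), JUP (1.11), PODXL (1.06), HR (0.93), PHF7 (1.21), PMEPA1 (0.57) and RB1 (0.48), and for the noncoding LINC02646 (1.505) and LINC01193 (1.38). TET1 (0.93), CBX2 (0.70), CRYAB (0.83), MT2A (0.68) and EGR1 (1.06) fell in Flp-In cells and gave no call in AsiSI cells. The fall was larger in AsiSI cells for NEIL2 (-0.86), H2BC14 (-0.795), DUSP7 (-0.70), DYRK2 (-0.59), PTBP1 (-0.54) and POLR2A (-0.46). In Flp-In cells DYRK2 lost its call without each of the 4 libraries and with at least 50 counts (adjusted p from 0.0609 to 0.181), and POLR2A without siNC replicate 1, siNC replicate 2 or siMePCE replicate 2 and with at least 50 counts (0.0633 to 0.385).

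Among genes that rose in Flp-In cells the rise was smaller in AsiSI cells for MMP9, a secreted protease (-1.52), CDH11 (-1.26), CA8 (-1.13), SNHG3 (-0.595) and HUS1 (-0.55). RNU4-2 (-1.52), ADAMTS12 (-0.98), SNHG17 (-0.84), TFB2M (-0.78), LAMB3 (-0.77), WDR43 (-0.55), BRD2 (-0.55) and ERI1 (-0.52) rose in Flp-In cells and gave no call in AsiSI cells. CXCL8, a neutrophil-attracting chemokine, and CLDN4, a tight junction protein, rose more in AsiSI cells, by 2.65 and 1.15. The Flp-In calls of CXCL8 and RNU4-2 were lost with a robust dispersion estimate (adjusted p = 0.239 and 0.093).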

How the results depend on the processing

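The count of 17690 calls (7844 higher, 9846 lower) was 17790 with DESeq2 size factors, 17644 without the abundant rows, 16675 with at least 50 counts, 17604 with no filter, 16589 by DESeq2, 19772 from the 4 Flp-In libraries alone and 17711 with a robust dispersion, an alternative chosen after the data were seen. Leaving out 1 library gave 12606 to 14698 calls, 4899 to 5975 higher and 7508 to 8723 lower. A log2 fold change of at least 1 left 8341 calls (3864 higher, 4477 lower), and genes with no strong overlap gave 5372 (2634 higher, 2738 lower). No named gene reversed its direction where it was called in the main fit or in the alternative, and no count over all genes reversed. Genes with no call could change sign, such as HEXIM1, with log2 fold changes from -0.141 to 0.148 when 1 library was left out. The 53 lists with a median log2 fold change of at least 0.1 either way kept its sign. Medians nearer 0 could turn: that of COP9 and cullin genes went from -0.02 to 0.056 with at least 50 counts, where 10 were higher and 8 lower, and that of p53 targets from -0.044 to 0.041 without siMePCE replicate 2 and 0.028 without siNC replicate 1 or with at least 50 counts. Counts for gene lists moved by over 1.5 times in 169 of their values, among them members higher: with at least 50 counts, 17 mitochondrial RNA factors (11 before), 11 tRNA synthetases (6), 10 COP9 and cullin genes (6), 12 proteasome genes (5) and 8 of the super elongation complex list (4), and without a filter 5 YAP targets (8), 3 COP9 and cullin genes and 3 proteasome genes. Of the named genes' values, 115 lost a call under an alternative and 2 gained one. With 2 libraries a group, the spread within a group is poorly known.

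The labels give the replicate numbers no shared origin. Deviations of same-numbered libraries correlated at 0.0427 between Flp-In siNC and siMePCE. Over the 6 pairs of groups the correlations were small but all positive, and reached 0.155. Whether same-numbered libraries share an origin was not tested, and the main fit did not use the replicate numbers. With the replicate block 19023 genes were called, 17664 of them in the fit without it.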
